A study of Mus musculus with 2 samples.

Results

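The comparison is between 2 groups of 6 mouse pseudoblastocysts (embryos with a cavity, taken without assessing whether they held an inner cell mass, or ICM): 2CB embryos, each grown from 1 blastomere isolated from a 2-cell embryo at 24 hours postinsemination (hpi), and 1C embryos, each grown from a zygote whose zona pellucida had been removed at 5 hpi. These are 12 of the 48 embryos in the deposited tables, and they were taken by their column names. Both groups came from B6D2F1 oocytes fertilized in vitro with ICR sperm and were collected one by one at 96 hpi, and the 1C embryos served as controls that had lost the zona pellucida but no cells. The question addressed was how the transcriptome of an embryo that started from a single 2-cell blastomere compares with that of an embryo that started from the whole zygote. RNA of each embryo was barcoded with the CEL-Seq2 protocol, which tags the 3′ end of each captured transcript with a unique molecular identifier (UMI), so a value is a number of UMIs per gene and embryo. Levels are given in CPM, the counts of a gene scaled to a total of 1000000 UMIs in each embryo. The 2CB embryos lie in the library pool of 2- and 4-cell blastomeres and the 1C embryos in that of zygotes and 8-cell blastomeres, so that the stage of isolation and the pool cannot be told apart in any result below.

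A mouse embryo forms the trophectoderm (TE), an outer epithelium that pumps fluid into the cavity and later builds the placenta, and the ICM, which divides into the epiblast, the source of the fetus, and the primitive endoderm, the source of yolk sac tissue. In outer cells Hippo signaling is off, YAP1 binds TEAD4, and Cdx2 and Gata3 are switched on, whereas in inner cells Nanog, Sox2 and Pou5f1 (OCT4) maintain pluripotency. FGF4 from the epiblast acts through FGF receptors and ERK on neighboring cells, which take up the primitive endoderm program led by Gata6, Gata4 and Sox17. Before compaction, blastomeres from the 2-cell stage can still form every one of these lineages.

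The depth differed between the groups. The 1C embryos held 123594 to 368348 UMIs each and the 2CB embryos 332867 to 1507471 (exact two-sided permutation test, p = 0.00866, Benjamini-Hochberg adjusted over 7 tests 0.0121). At an equal depth of 123594 UMIs, 8458 to 9057 genes were detected in 1C and 9167 to 9641 in 2CB embryos, without overlap between the groups (difference 742, exact permutation p = 0.00216, the smallest that 6 against 6 allows). The same 6 barcodes were used once in each pool. The largest value of a gene in an embryo was 53029, whereas 6 random bases, as the standard CEL-Seq2 primer carries, allow 4096 different UMIs, so high values count more than distinct sequences of that length. Transcripts of the Y chromosome exceeded 100 CPM in 4 of 6 1C and in 3 of 6 2CB embryos and were below 10 CPM in the other embryos. Of 15 cumulus cell markers 5 had any UMI, and the sum of all 15 ranged from 24 to 57 CPM in 1C and from 19.9 to 81.3 CPM in 2CB embryos.

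Of 4861 genes with enough UMIs to be tested, 2117 (43.6%) were called between 2CB and 1C embryos at an adjusted p below 0.1. In 2CB embryos 1182 genes (24.3%) were higher and 935 (19.2%) were lower, and 459 genes (9.44%) were called with every 2CB embryo above every 1C embryo and 328 (6.75%) with every one below. The median log2 fold change, given throughout as 2CB minus 1C, was 0.05. Among called genes 309 were higher and 123 lower by a log2 fold change of at least 2. To be tested, a gene had to reach 28.0 CPM in at least 6 of the 12 embryos. That filter was passed by 109 genes through the 2CB embryos alone and by 41 through the 1C embryos alone, and all of these were called, as such genes have to differ to pass. With every embryo thinned to 123594 UMIs, the same 4861 genes gave 996 higher and 813 lower calls. Where a gene list below had 0 calls in a direction, edgeR at an unadjusted p below 0.05 and DESeq2 gave 0 as well. That p threshold was passed by 2179 genes, against 2117 called, so it is hardly looser than the main one. Some of these zeros changed on leaving out single embryos, as given with the lists. Because these are whole embryos, fewer cells of a type and less RNA per cell cannot be told apart.

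**Figure D1:**
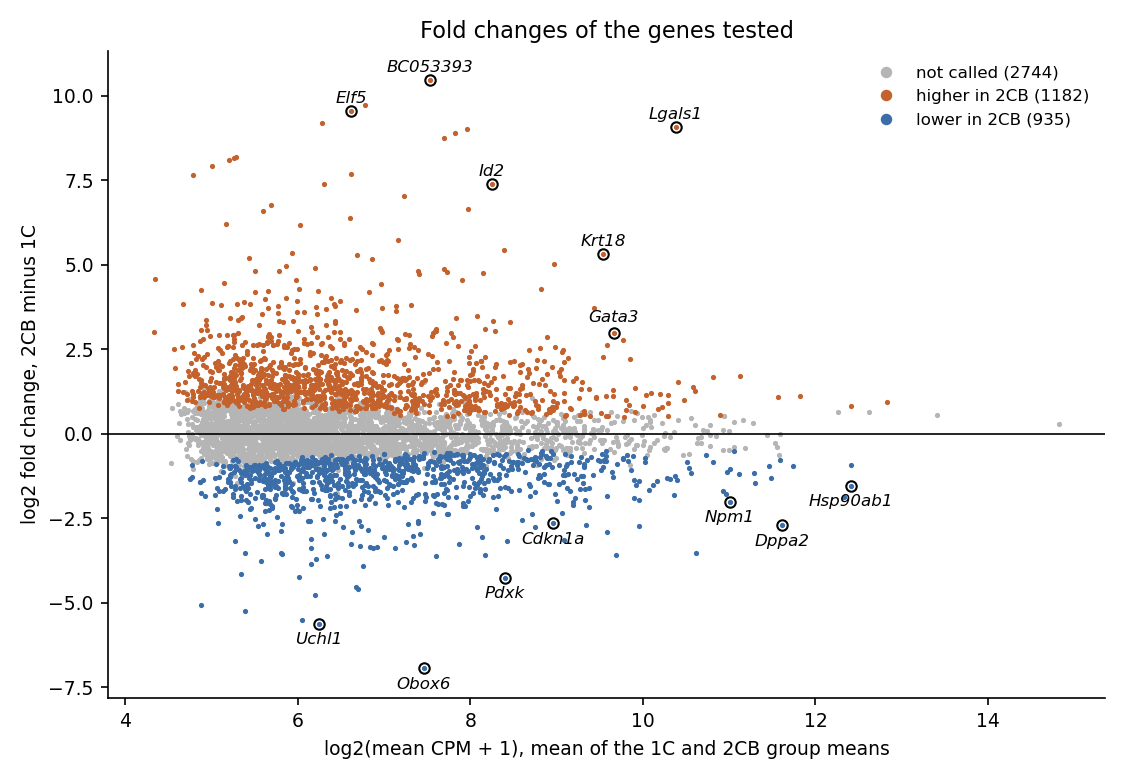
Log2 fold change (2CB minus 1C, vertical axis) of each of the 4861 tested genes against the log2 of its mean level over the groups in CPM plus 1 (horizontal axis). Orange points are the 1182 genes called higher in 2CB embryos, blue points the 935 called lower and gray points the genes not called; genes at 0 in all 1C embryos, such as Elf5 and BC053393, are drawn at the fitted value, which depends on a prior count.

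Transcription factors of the TE were mostly higher in 2CB embryos. Of 21 listed factors 13 were tested, 10 were called higher, 0 were called lower and 3 were not called, against 24.3% of all tested genes called higher, and the median log2 fold change was 2.99 (2.00 to 3.06 on leaving out single embryos). Of the 13, 5 (Elf5, Id2, Gata2, Tfap2a and Msx2) passed the filter through the 2CB embryos alone and had to be called. Of the other 8 factors 5 were called higher, and their median was 1.52. Without 2CB replicates 3 and 4, the 2 embryos with the highest sum of primitive endoderm genes, the median of the list was 1.94. The summed level of all 21 members ranged from 2196 to 6173 CPM in 1C and from 4522 to 11779.7 CPM in 2CB embryos, so that the groups overlapped in the sum. Cdx2 (chr5:147300805-147307270, minus strand, GRCm38, as are all gene positions given), which is needed to form a lasting TE, ranged from 2.89 to 40.7 CPM (median 28.3) in 1C and from 48.4 to 116 CPM (median 93.5) in 2CB embryos. All 2CB embryos lay above all 1C embryos for Cdx2 (log2 fold change 1.91 ± 0.44 (SE), adjusted p = 0.00242). Gata3 (chr2:9857078-9890034, minus strand), which acts beside Cdx2, ranged from 31.7 to 364 CPM (median 194) in 1C and from 1145 to 1851 CPM (median 1357) in 2CB embryos and did not overlap either (log2 fold change 2.99 ± 0.42 (SE), adjusted p = 3.16e-05). Eomes (chr9:118478212-118486132, plus strand), required for trophoblast growth, ranged from 0 to 84.2 CPM (median 41.9) in 1C and from 144 to 1186 CPM (median 267) in 2CB embryos (log2 fold change 3.41 ± 0.66 (SE), adjusted p = 6.55e-04). One 2CB embryo, replicate 3, held the highest Eomes level, and 2 of the 1C embryos had no Eomes UMI. Elf5 (chr2:103411688-103450989, plus strand), which sustains trophoblast stem cells together with Cdx2 and Eomes, had 0 UMIs in all 6 1C embryos and 599 in 2CB embryos, where it ranged from 33.5 to 607 CPM (median 86.5). Against a floor of 3 UMIs over the 1C group, with UMIs pooled over the embryos of each group and divided by the pooled total, as in every such bound given here, Elf5 was at least 67.3-fold higher in 2CB embryos (adjusted p = 2.18e-04).

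Id2, Gata2 and Tfap2a were among the factors whose levels in 1C embryos all lay below the filter, so their separation was needed for them to be tested. Id2, an inhibitor of basic helix-loop-helix factors that appears early in outer cells, ranged from 0 to 8.75 CPM (median 1.36) in 1C and from 396 to 1018 CPM (median 544) in 2CB embryos (log2 fold change 7.37 ± 0.50 (SE), adjusted p = 7.02e-09). Gata2, which works with Gata3 in trophoblast, ranged from 0 to 14.6 CPM (median 4.01) in 1C and from 102 to 299.8 CPM (median 199) in 2CB embryos (log2 fold change 5.28 ± 0.57 (SE), adjusted p = 1.90e-06). Tfap2a, an AP-2 factor, ranged from 0 to 11.7 CPM (median 4.79) in 1C and from 71.2 to 144 CPM (median 125) in 2CB embryos (log2 fold change 4.55 ± 0.51 (SE), adjusted p = 2.53e-06). Klf5, Klf6 and Msx2 were also called higher, with log2 fold changes of 1.12, 2.11 and 4.24. Tead4 and Tfap2c, which act upstream of Cdx2, were not called. Tead4, the partner of YAP1, ranged from 100.4 to 185 CPM (median 138) in 1C and from 100.5 to 201 CPM (median 153) in 2CB embryos (log2 fold change 0.12 ± 0.27 (SE), adjusted p = 0.769). Tfap2c, an AP-2 factor of the cleavage-stage embryo and the TE, ranged from 247 to 638 CPM (median 414) in 1C and from 139.7 to 535 CPM (median 289) in 2CB embryos (log2 fold change -0.51 ± 0.32 (SE), adjusted p = 0.221), though it was called lower when 2CB replicate 6 was left out (-0.78, adjusted p = 0.065). Hand1 and Ovol2, a factor of trophoblast giant cells and a factor of trophoblast differentiation, reached 28.0 CPM in fewer than 6 embryos, were not tested and went the other way: Hand1 had 180 UMIs in 1C and 29 in 2CB embryos, and Ovol2 99 and 64. In the fit without the filter, Hand1 and Ovol2 were called lower, with log2 fold changes of -4.01 and -1.97. Leaving out any 2CB embryo, or 1C replicate 4, gave 2 or 3 lower calls in the list in place of 0.

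**Figure D2:**
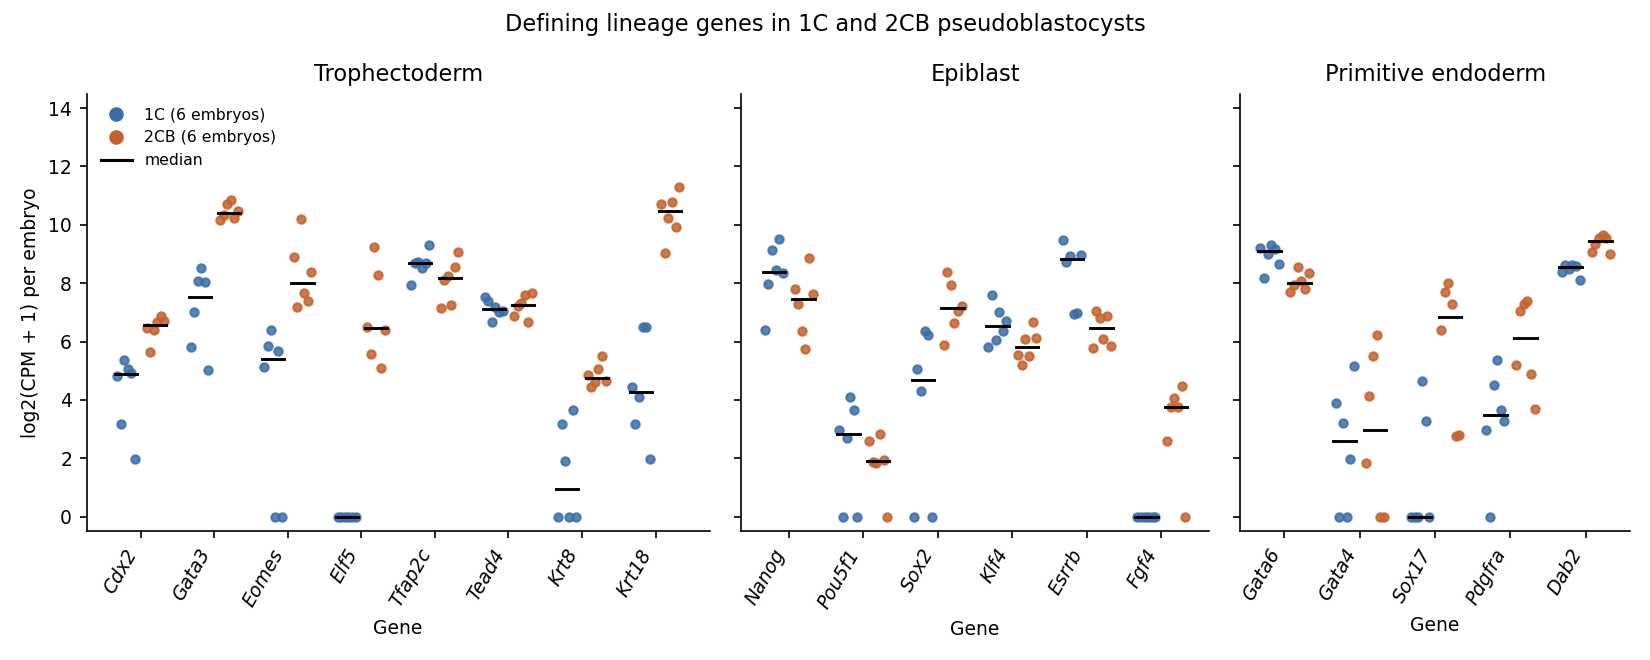
Levels of the defining TE, epiblast and primitive endoderm genes in each embryo, as log2 of CPM plus 1 (vertical axis), for 6 1C (blue) and 6 2CB (orange) embryos, with a black line at the median of each group. For Cdx2, Gata3, Eomes, Elf5, Krt8, Krt18 and Dab2 every 2CB embryo lies above every 1C embryo, whereas the groups overlap for Tfap2c, Tead4, Nanog, Pou5f1, Sox2, Klf4, Esrrb and the other genes shown.

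Genes that carry out the work of the TE epithelium were higher as well. Of 30 such genes 16 were tested, 12 were called higher, 0 lower and 4 not called (75% higher and 0% lower, against 24.3% and 19.2% of all tested genes), with a median log2 fold change of 2.46 (2.26 to 2.82 on leaving out single embryos). Of the 16, Tspan8, Tmprss2 and Adh1 passed the filter through the 2CB embryos alone and had to be called, and of the other 13 genes 9 were called higher, with a median of 2.26. The summed level of all 30 members ranged from 1579 to 3989.7 CPM in 1C and from 7225 to 11196 CPM in 2CB embryos, without overlap. Krt18 (chr15:102028216-102032026, plus strand), the type I keratin of simple epithelia, ranged from 2.89 to 90.4 CPM (median 18.4) in 1C and from 519 to 2518 CPM (median 1454) in 2CB embryos (log2 fold change 5.30 ± 0.58 (SE), adjusted p = 2.14e-06). Its partner Krt8 had 6 UMIs in 1C and 126 in 2CB embryos and was not tested; the fit without a filter gave a log2 fold change of 2.83 ± 0.73 (SE) and an adjusted p of 0.00183. Both keratins were higher in every 2CB embryo than in any 1C embryo. Tspan8, a tetraspanin, ranged from 0 to 8.09 CPM (median 2.82) in 1C and from 45.7 to 108 CPM (median 98.1) in 2CB embryos (log2 fold change 4.80 ± 0.55 (SE), adjusted p = 3.52e-06). Lrp2 (megalin), an endocytic receptor of absorptive epithelia, ranged from 34.3 to 365 CPM (median 144) in 1C and from 373 to 1353 CPM (median 909.5) in 2CB embryos (log2 fold change 2.48 ± 0.45 (SE), adjusted p = 3.85e-04). Anxa2, S100a11 and Wnt7b followed, with log2 fold changes of 2.97, 1.70 and 3.30. Cd9, S100a6, Ctsl and Fgfr2 were not called, with log2 fold changes of 0.13, -0.02, -0.13 and 0.87.

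The genes for cavitation and for the epithelial seal rose in part. Of 40 members 22 were tested, 13 were called higher, 0 lower and 9 not called (59.1% higher and 0% lower, against 24.3% and 19.2% of all tested genes), and the median log2 fold change was 0.99 (0.81 to 1.14 on leaving out single embryos). Adhesion genes led the list. Among 11 genes of adherens junctions and desmosomes 7 were tested and 5 were called higher. Dsg2, a desmosomal cadherin, ranged from 0 to 140.0 CPM (median 36.7) in 1C and from 241 to 494 CPM (median 410.3) in 2CB embryos (log2 fold change 2.96 ± 0.55 (SE), adjusted p = 4.38e-04). Dsp, which ties desmosomes to keratin, ranged from 13.7 to 318 CPM (median 49.1) in 1C and from 384 to 658 CPM (median 426) in 2CB embryos (log2 fold change 2.14 ± 0.50 (SE), adjusted p = 0.00265). Epcam, an epithelial adhesion molecule, ranged from 40.4 to 728 CPM (median 294) in 1C and from 991 to 2307 CPM (median 1468) in 2CB embryos (log2 fold change 2.19 ± 0.46 (SE), adjusted p = 0.00124). None of the 3 overlapped between the groups. Cdh1 (E-cadherin), the adhesion protein of compaction, and Ctnna1 were called higher too (log2 fold changes 1.46 and 0.94), but Ctnnd1 was at -0.62 and not called. Among 17 tight junction and polarity genes 10 were tested and 7 called higher. Cldn6, a claudin of the seal, ranged from 23.1 to 583 CPM (median 139) in 1C and from 581 to 1212 CPM (median 889.7) in 2CB embryos, with a narrow overlap (log2 fold change 2.13 ± 0.51 (SE), adjusted p = 0.00314). Cldn4, Cldn7, F11r, Prkcz and Prkci had log2 fold changes of 0.78, 1.04, 1.21, 1.12 and 1.38, and Tjp1 was at -0.44 without a call. Of 6 genes of the sodium pump, which drives fluid into the cavity, 2 were tested and 1 was called higher, whereas the subunit Atp1b3 was not called (-0.26). The subunit Atp1b1 did not pass the filter, with 7 UMIs in 1C and 184 in 2CB embryos, and was called higher without the filter (2.90, adjusted p = 4.17e-04). Of the aquaporins, which let water through, Aqp3 and Aqp9 were not called (-0.56 and -0.70), and Aqp8 had 0 UMIs in 1C and 92 in 2CB embryos (at least 10.3-fold higher). In the fit without a filter, in which 10.6% of 21007 genes were called higher and 7.81% lower, 22 of 39 members with a UMI were called higher and 0 lower. Leaving out 2CB replicate 5 gave 1 lower call in the list in place of 0.

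Epiblast and pluripotency genes were mostly lower or not called. Of 30 genes 15 were tested, 6 were called lower, 1 was called higher and 8 were not called, against 19.2% and 24.3% of all tested genes, and the median log2 fold change was -0.91 (-0.98 to -0.62 on leaving out single embryos). The summed level of all 30 members ranged from 9588 to 16800.2 CPM in 1C and from 4957 to 8061 CPM in 2CB embryos, without overlap. That separation rested on Dppa2, since the sum without it ranged from 6125 to 7485 CPM in 1C and from 4197 to 6901 CPM in 2CB embryos and overlapped. Dppa2, a chromatin factor of the preimplantation embryo, ranged from 2621 to 9374 CPM (median 4575) in 1C and from 459 to 1160.2 CPM (median 811) in 2CB embryos (log2 fold change -2.71 ± 0.34 (SE), adjusted p = 8.45e-06). Esrrb (chr12:86361117-86521628, plus strand), an orphan nuclear receptor of naive pluripotency, ranged from 121 to 720.5 CPM (median 458) in 1C and from 53.3 to 131 CPM (median 89.3) in 2CB embryos, with a narrow overlap (log2 fold change -2.15 ± 0.41 (SE), adjusted p = 5.79e-04). Nr5a2, a nuclear receptor that binds Pou5f1 regulatory DNA, ranged from 251 to 477 CPM (median 303) in 1C and from 63.1 to 119.9 CPM (median 90.2) in 2CB embryos (log2 fold change -1.87 ± 0.26 (SE), adjusted p = 2.42e-05). Tdh, the threonine dehydrogenase that feeds one-carbon metabolism in pluripotent cells, ranged from 64.7 to 231 CPM (median 124) in 1C and from 12 to 42.1 CPM (median 37.6) in 2CB embryos (log2 fold change -2.16 ± 0.40 (SE), adjusted p = 4.38e-04). Dppa3 and Dppa4 were also called lower, with log2 fold changes of -0.92 and -0.91.

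The central factors of the ICM did not move together. Nanog (chr6:122707489-122714633, plus strand) ranged from 82.3 to 735 CPM (median 337) in 1C and from 52.6 to 466 CPM (median 177) in 2CB embryos and missed the threshold (log2 fold change -0.97 ± 0.46 (SE), adjusted p = 0.111). It was called lower when 1C replicate 1 or 2 or 2CB replicate 5 was left out (log2 fold changes -1.22, -1.12 and -1.45, adjusted p = 0.0398, 0.0893 and 0.0209). Klf4 ranged from 54.9 to 192 CPM (median 92.8) in 1C and from 35.8 to 100.5 CPM (median 56.7) in 2CB embryos and likewise missed it (log2 fold change -0.75 ± 0.36 (SE), adjusted p = 0.108), with calls on leaving out 1C replicate 1, 3 or 5 or 2CB replicate 5 (adjusted p = 0.0608, 0.0571, 0.0797 and 0.0505). Sox2 (chr3:34650405-34652461, plus strand) was the called gene that was higher. It ranged from 0 to 80.9 CPM (median 25.5) in 1C and from 58.4 to 329.7 CPM (median 139.6) in 2CB embryos (log2 fold change 2.38 ± 0.63 (SE), adjusted p = 0.00638), and it lies on the same strand within Sox2ot, from which its reads cannot be told apart where they overlap. Pou5f1 had 9 UMIs in 1C and 14 in 2CB embryos, too few for a statement on its direction at this depth, although OCT4 is a defining protein of the ICM. Fgf4 had 0 UMIs in 1C and 57 in 2CB embryos, where 5 of the 6 embryos held some, and was at least 6.40-fold higher against the floor of 3 UMIs. Spp1, which encodes osteopontin, had 0 UMIs in 1C and 312 in 2CB embryos (at least 35-fold higher), and Bmp4, a ligand of the TGF-beta family, had 3 and 559, and these 2 genes were picked after their values were seen. Without the filter 8 members were called higher and 8 lower (10.6% and 7.81% of all genes in that fit), and leaving out any 1C embryo or 2CB replicate 6 gave 3 or 4 higher calls in place of 1.

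The primitive endoderm list was split between its regulators and its products. Of 30 genes 13 were tested, 10 were called higher, 2 lower and 1 not called (76.9% higher and 15.4% lower, against 24.3% and 19.2% of all tested genes), with a median log2 fold change of 1.93 (1.29 to 2.11 on leaving out single embryos). Here Lama1 and Fn1 passed the filter through the 2CB embryos alone and had to be called, and of the other 11 genes 8 were called higher and 2 lower, with a median of 1.44. The summed level of all 30 members ranged from 1362 to 2209 CPM in 1C and from 1730.4 to 6273 CPM in 2CB embryos and overlapped. Replicates 3 and 4 of the 2CB embryos stood apart in it, with 4929 and 6273 CPM in these 2 embryos and 1730.4 to 2576 CPM in the other 4. Without both, 7 genes were called higher and 2 lower, and the median fell to 1.18. Of 10 genes of the basement membrane, which primitive endoderm secretes, 7 were tested and called higher, among them Lama1 and Fn1, which had to be called. Lama1, the laminin alpha chain of Reichert's membrane (chr17:67697265-67822645, plus strand), had 0 UMIs in 1C embryos and 749 in 2CB embryos (from 33 to 657 CPM, median 82), at least 84.1-fold higher, and it was at 657 and 402 CPM in these 2 embryos and 33 to 87.1 CPM in the other 4. Sparc, a matrix glycoprotein, ranged from 0 to 37.9 CPM (median 15.5) in 1C and from 120.2 to 958 CPM (median 217) in 2CB embryos (log2 fold change 4.77 ± 0.71 (SE), adjusted p = 5.22e-05), with 766 and 958 CPM in these 2 embryos and 120.2 to 264 CPM in the other 4. Lamb1, Col4a1, Col4a2 and Fn1 had log2 fold changes of 2.13, 1.93, 1.44 and 2.56. Apoe, apolipoprotein E, made by the yolk sac, ranged from 0 to 40.8 CPM (median 13.9) in 1C and from 139.7 to 472 CPM (median 193) in 2CB embryos (log2 fold change 3.78 ± 0.48 (SE), adjusted p = 9.82e-06). Both tested transcription factors went down. Gata6, the first factor of the lineage, ranged from 289 to 639 CPM (median 544) in 1C and from 208 to 373 CPM (median 257) in 2CB embryos (log2 fold change -0.87 ± 0.24 (SE), adjusted p = 0.0095), and Cited1, a transcriptional coactivator, ranged from 245 to 686 CPM (median 574) in 1C and from 5.21 to 71.2 CPM (median 50.2) in 2CB embryos (log2 fold change -3.60 ± 0.46 (SE), adjusted p = 1.16e-05). Sox17, Foxq1 and Gata4 reached 28.0 CPM in fewer than 6 embryos and were not tested. Sox17 had 6 UMIs in 1C and 549 in 2CB embryos, Foxq1 2 and 1107, and Gata4 18 and 91, and without the filter Sox17 and Foxq1 were called higher (4.77 and 7.62) and Gata4 was not called (1.03, adjusted p = 0.268). Pdgfra, the receptor that marks the lineage, ranged from 0 to 40.5 CPM (median 10.2) in 1C and from 12 to 167 CPM (median 82.8) in 2CB embryos (log2 fold change 2.61 ± 0.66 (SE), adjusted p = 0.00517). Dab2, an endocytic adaptor that sorts the lineage to the surface of the ICM, ranged from 274 to 396 CPM (median 374) in 1C and from 514 to 803 CPM (median 699) in 2CB embryos (log2 fold change 0.92 ± 0.21 (SE), adjusted p = 0.00269).

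Next, the 10 largest fold changes each way were taken among called genes that did not overlap between the groups and averaged 50 CPM or more, so their separation and their calls follow from how they were taken. All 10 upward genes passed the filter through the 2CB embryos alone, and 9 of the 10 downward genes, all but Pdxk, through the 1C embryos alone. Upward these were, beside Elf5 and Lama1, genes with hardly a UMI in 1C embryos. BC053393, a protein-coding gene known here by its clone name (chr11:46571536-46589232, plus strand), had 0 UMIs in 1C and 1437 in 2CB embryos (from 210.5 to 675 CPM, median 319), at least 161-fold higher. Oas1f, of the oligoadenylate synthetase family (chr5:120847367-120857986, plus strand), had 0 and 660 UMIs, at least 74.1-fold higher, and it has close copies from which the counting could draw reads. Lgals1, the galactose-binding lectin galectin-1 (chr15:78926725-78930465, plus strand), ranged from 0 to 17.5 CPM (median 0) in 1C and from 2188 to 4392 CPM (median 2356) in 2CB embryos (log2 fold change 9.07 ± 0.56 (SE), adjusted p = 1.67e-09). Each of 5 further genes had 1 UMI in all 1C embryos together. For these, the UMIs of each group were pooled and divided by its pooled total, which weights deep embryos more, and the ratio of 2CB to 1C was 765 (exact 95% interval 137 to 30234) for Tmprss2, a serine protease of epithelial membranes with 2271 UMIs in 2CB embryos. It was 725 (exact 95% interval 129.9 to 28637) for Adh1, an alcohol dehydrogenase, 505 (exact 95% interval 90.6 to 19974) for Obp2a, a lipocalin, and 306 (exact 95% interval 54.7 to 12083) for Gpa33, an epithelial cell-surface antigen. For Dusp6, a phosphatase that ERK signaling induces and that switches ERK off, it was 207 (exact 95% interval 36.9 to 8171). The ratios of mean CPM, in which every embryo has the same weight, were 432, 993, 305, 401 and 345 in the same order of genes, so that with a single 1C UMI neither the size nor the order of these ratios is fixed. In 2CB embryos Dusp6 ranged from 121 to 248 CPM (median 145). These intervals cover counting error only.

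The largest changes downward included genes of the oocyte and of early cleavage. Obox6 (chr7:15833241-15839678, minus strand), an oocyte and early embryo homeobox gene of a multicopy family, ranged from 113 to 621 CPM (median 327) in 1C and from 0 to 5.21 CPM (median 3.16) in 2CB embryos (log2 fold change -6.95 ± 0.54 (SE), adjusted p = 3.17e-08). Uchl1 (chr5:66676091-66687234, plus strand), a ubiquitin hydrolase abundant in oocytes and neurons, ranged from 87.5 to 233 CPM (median 141) in 1C and from 0 to 7.62 CPM (median 2.32) in 2CB embryos (log2 fold change -5.63 ± 0.59 (SE), adjusted p = 1.49e-06). Map7d2, a microtubule-associated protein of the X chromosome, ranged from 89.2 to 157 CPM (median 133) in 1C and from 0 to 10.2 CPM (median 2.30) in 2CB embryos (log2 fold change -5.52 ± 0.54 (SE), adjusted p = 7.39e-07). Pdxk, the kinase that makes pyridoxal phosphate (chr10:78436744-78464975, minus strand), ranged from 469 to 738 CPM (median 652) in 1C and from 18.2 to 53.3 CPM (median 32.7) in 2CB embryos (log2 fold change -4.26 ± 0.29 (SE), adjusted p = 7.02e-09). Dnajb9, a chaperone of the endoplasmic reticulum, ranged from 64.7 to 219 CPM (median 123) in 1C and from 7.65 to 14.6 CPM (median 10.3) in 2CB embryos (log2 fold change -3.70 ± 0.41 (SE), adjusted p = 2.44e-06). Cux2, Col9a2, Ina and Trim43b had log2 fold changes of -4.60, -4.55, -4.25 and -3.86, and AC168977.1, on an unplaced scaffold, was at -4.79. Obox6 and Trim43b have close relatives, and how reads that match several copies were counted is not given in the sources used here.

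**Figure D3:**
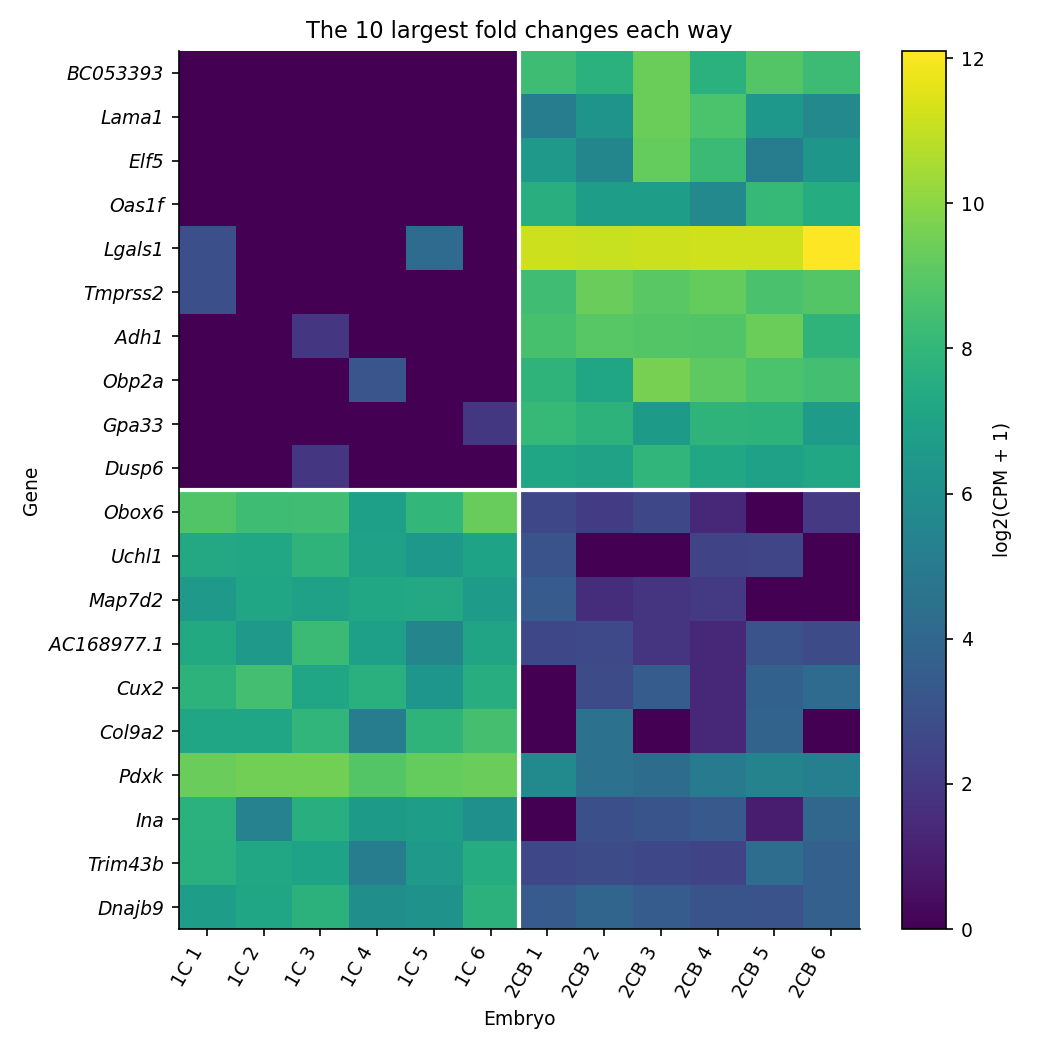
Level, as log2 of CPM plus 1 (color), of the 10 genes that changed most upward (top) and the 10 that changed most downward (bottom) in each of the 6 1C and 6 2CB embryos (columns). No upper gene exceeds 17.5 CPM (Lgals1) in a 1C embryo, and no lower gene exceeds 53.3 CPM (Pdxk) in a 2CB embryo.

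Few maternal and cleavage-stage transcripts were abundant enough to be tested. Of 40 oocyte and maternal-effect genes 3 were tested, and Uchl1 was lower, as above, while 2 members of the subcortical maternal complex were higher. Of the 3, Uchl1 passed the filter through the 1C embryos alone. Without the filter 9 of 35 members with a UMI were called lower and 4 higher, against 7.81% and 10.6% of all genes in that fit. Called lower were Zp3, of the egg coat, with 42 UMIs in 1C and 29 in 2CB embryos (-2.23), and Gdf9, an oocyte growth factor, with 24 and 15 (-2.25), and called higher was Tcl1, with 5 and 152 (3.24). Khdc3 ranged from 473 to 1248 CPM (median 706) in 1C and from 1045 to 2346 CPM (median 1552) in 2CB embryos (log2 fold change 1.16 ± 0.27 (SE), adjusted p = 0.00276), and Ooep ranged from 6.86 to 32.4 CPM (median 12.6) in 1C and from 18 to 91.4 CPM (median 69) in 2CB embryos (log2 fold change 1.97 ± 0.45 (SE), adjusted p = 0.00222). Of 40 genes of cleavage-stage genome activation, among them the Zscan4 family and Dux, 2 were tested, and Obox6 passed through the 1C embryos alone. Obox6 was lower and Eif1a was not called (0.07). Untested were Sp110 and Obox8, with 36 UMIs each in 1C embryos and 0 in 2CB embryos.

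Genes of sterol synthesis were higher in 2CB embryos. Cells make cholesterol from acetyl-CoA through mevalonate, and SREBP2, the product of Srebf2, drives the genes of the pathway when sterols run low. Of 27 genes 18 were tested, 16 were called higher (11 to 16 on leaving out single embryos), 0 were called lower and 2 were not called, against 24.3% of all tested genes called higher. Of the 18, Mvk passed the filter through the 2CB embryos alone. The median log2 fold change was 1.88 (1.57 to 1.92 on leaving out single embryos), and the summed level of all 27 members ranged from 617 to 823 CPM in 1C and from 1976 to 3671 CPM in 2CB embryos, without overlap. Mvk, mevalonate kinase, ranged from 0 to 16.2 CPM (median 2.71) in 1C and from 73 to 107 CPM (median 92.3) in 2CB embryos (log2 fold change 4.00 ± 0.53 (SE), adjusted p = 1.85e-05). Pmvk, the next kinase, ranged from 13.7 to 178 CPM (median 23.6) in 1C and from 289 to 949 CPM (median 494) in 2CB embryos (log2 fold change 3.32 ± 0.50 (SE), adjusted p = 6.23e-05). Every 2CB embryo held more of both transcripts than any 1C embryo, which for Mvk was needed to pass the filter. Along the pathway, Acat2, Hmgcs1, Mvd, Fdps, Sqle, Cyp51, Nsdhl and Dhcr7 had log2 fold changes of 2.18, 1.60, 2.16, 0.82, 1.09, 2.40, 2.66 and 1.10. The regulators Srebf2 and Insig1 were at 3.01 and 0.94. Lss and Msmo1 were not called (0.71 and 0.51). Leaving out 1C replicate 4 gave 1 lower call in place of 0.

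Because these genes moved together, their promoters were searched for the sterol regulatory element to which SREBP2 binds (SRE, TCACNCCAC, either strand) in RefSeq windows of 250 bases before to 50 after each start (GRCm38.p6). Of 27 genes 19 had a window, and 1 of their 24 windows (4.17%) held the motif, against 1.24% of 32851 windows of all genes and 1.05% of those of the tested genes. The window with the match is that of Hmgcs1 (chr13:119690101-119690400, plus strand), where it opens 137 bases before the RefSeq start. Bases just after that start were not found near the opening of a GENCODE M21 transcript of Hmgcs1, so the distance holds for the RefSeq start alone. The window is shown with the motif in capitals.
Hmgcs1: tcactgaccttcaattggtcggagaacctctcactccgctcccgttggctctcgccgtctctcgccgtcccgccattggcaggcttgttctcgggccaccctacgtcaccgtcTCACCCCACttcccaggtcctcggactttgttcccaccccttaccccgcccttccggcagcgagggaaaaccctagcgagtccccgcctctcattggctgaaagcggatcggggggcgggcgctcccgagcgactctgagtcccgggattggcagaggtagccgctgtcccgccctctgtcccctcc
A match is a description of letters, and the windows of the other 18 genes say only that these letters are not in them.

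**Figure D4:**
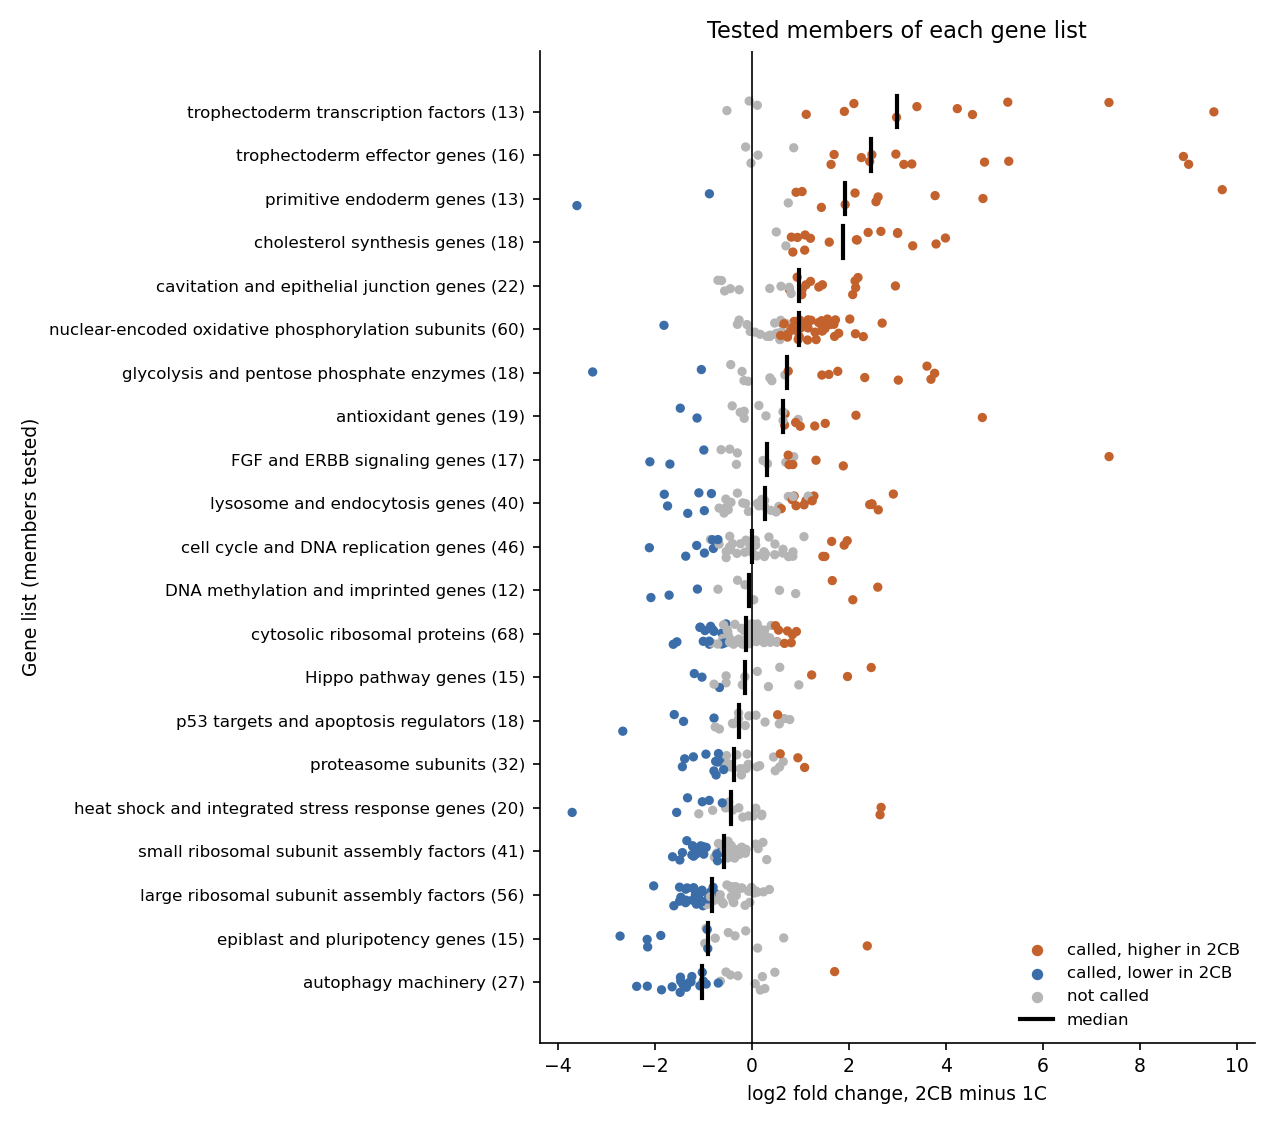
Log2 fold change (2CB minus 1C, horizontal axis) of every tested member of each gene list with at least 10 tested members (vertical axis, number tested in parentheses); orange points were called higher, blue points lower and gray points were not called, and black bars are medians. The medians include members that passed the filter through 1 group alone: that of TE transcription factors is 2.99 with the 5 such genes and 1.52 without them.

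In each of the 5 complexes of the respiratory chain and ATP synthesis, subunits were higher in 2CB embryos. Of 84 nuclear-encoded subunits 60 were tested, 40 were called higher (30 to 43 on leaving out single embryos) and 1 lower (66.7% higher and 1.67% lower, against 24.3% and 19.2% of all tested genes), with a median log2 fold change of 0.97 (0.78 to 0.98 on leaving out single embryos). The summed level ranged from 8660.3 to 12806 CPM in 1C and from 17546 to 20152 CPM in 2CB embryos, without overlap. By complex, 18 of 28 tested subunits of complex I, 3 of 3 of complex II, 6 of 8 of complex III with cytochrome c, 5 of 9 of complex IV and 8 of 12 of ATP synthase were called higher. Sdha, the catalytic subunit of succinate dehydrogenase, ranged from 0 to 29.2 CPM (median 9.48) in 1C and from 83.8 to 117 CPM (median 105) in 2CB embryos (log2 fold change 2.69 ± 0.42 (SE), adjusted p = 8.44e-05). Ndufb9 of complex I ranged from 6.86 to 52.5 CPM (median 40.4) in 1C and from 111 to 273 CPM (median 147) in 2CB embryos (log2 fold change 2.14 ± 0.35 (SE), adjusted p = 1.32e-04). Cox7b of complex IV ranged from 16 to 34.6 CPM (median 32.5) in 1C and from 69.6 to 162 CPM (median 120.4) in 2CB embryos (log2 fold change 2.02 ± 0.32 (SE), adjusted p = 1.08e-04). Atp5j2 of ATP synthase ranged from 8.14 to 52.5 CPM (median 24.2) in 1C and from 79.4 to 210.3 CPM (median 130.0) in 2CB embryos (log2 fold change 2.30 ± 0.39 (SE), adjusted p = 1.94e-04). None of these 4 subunits overlapped between the groups. Uqcrb of complex III was the exception, called lower (-1.81), and Cox6c, at 2804 CPM on average in 1C and 2759 in 2CB embryos, was not called. Transcripts of the mitochondrial genome itself could not be compared, because all 37 of its genes are listed at 0 in every embryo.

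In glycolysis the hexokinase genes moved in opposite directions. Of 32 enzymes and transporters of glycolysis and the pentose phosphate pathway 18 were tested, 9 were called higher, 2 lower and 7 not called (50% higher and 11.1% lower, against 24.3% and 19.2% of all tested genes). Of the 18, Tpi1 passed the filter through the 2CB embryos alone. The median log2 fold change was 0.72 (0.59 to 1.49 on leaving out single embryos), and it exceeded 1.5 times its value when 1C replicate 1, 2, 4 or 5 or 2CB replicate 6 was left out. Hk1, the hexokinase of most tissues, ranged from 48.5 to 261 CPM (median 200.3) in 1C and from 5.21 to 30.5 CPM (median 16) in 2CB embryos (log2 fold change -3.28 ± 0.45 (SE), adjusted p = 2.73e-05). Hk2, the inducible hexokinase, ranged from 24 to 56.6 CPM (median 45.9) in 1C and from 246 to 439.5 CPM (median 348) in 2CB embryos (log2 fold change 3.02 ± 0.29 (SE), adjusted p = 5.17e-07). Neither overlapped between the groups. Downstream, Tpi1 (triose phosphate isomerase) ranged from 0 to 17.5 CPM (median 5.60) in 1C and from 44 to 182 CPM (median 98) in 2CB embryos (log2 fold change 3.77 ± 0.55 (SE), adjusted p = 4.54e-05), and Pgk1 (phosphoglycerate kinase, X-linked) ranged from 6.86 to 40.5 CPM (median 20.2) in 1C and from 137 to 376 CPM (median 269) in 2CB embryos (log2 fold change 3.61 ± 0.40 (SE), adjusted p = 2.36e-06). Pgls, an enzyme of the oxidative pentose phosphate branch, ranged from 0 to 29.2 CPM (median 7.04) in 1C and from 99.5 to 240.3 CPM (median 132) in 2CB embryos (log2 fold change 3.70 ± 0.50 (SE), adjusted p = 2.34e-05), and it overlaps Fam129c on the same strand. Gpi1, Aldoa and the transporters Slc2a3 (glucose) and Slc16a1 (lactate and pyruvate) had log2 fold changes of 2.33, 1.59, 1.45 and 1.78. Pgam1 was called lower (-1.04).

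Enzymes that remove peroxides and superoxide were partly higher. Of 31 antioxidant genes 19 were tested, 8 were called higher, 2 lower and 9 not called (42.1% higher and 10.5% lower, against 24.3% and 19.2% of all tested genes), with a median log2 fold change of 0.65 (0.41 to 0.74 on leaving out single embryos), the lowest without 2CB replicate 2. Gsta4, a glutathione transferase for products of lipid peroxidation, ranged from 0 to 46.7 CPM (median 14.4) in 1C and from 486 to 695 CPM (median 528) in 2CB embryos (log2 fold change 4.76 ± 0.41 (SE), adjusted p = 1.13e-07). Prdx1, a peroxiredoxin of the cytosol, ranged from 19 to 80.2 CPM (median 47.6) in 1C and from 128 to 369 CPM (median 167) in 2CB embryos (log2 fold change 2.15 ± 0.36 (SE), adjusted p = 1.65e-04), and Gpx1, a glutathione peroxidase, ranged from 343 to 1197 CPM (median 642) in 1C and from 1491 to 2258 CPM (median 2146) in 2CB embryos (log2 fold change 1.52 ± 0.27 (SE), adjusted p = 3.27e-04). All 3 were higher in each 2CB embryo than in any 1C embryo. The superoxide dismutases Sod1 and Sod2 were at 0.69 and 1.00, and the metallothioneins Mt1 and Mt2 were not called (0.64 and 0.65). Gsto1 was lower (-1.13), and Gclm, a subunit of the enzyme that starts glutathione synthesis, was called lower (-1.47) but not without 1C replicate 5 (-0.98, adjusted p = 0.179).

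Of the factors that assemble ribosomes in the nucleolus, those that were called were lower in 2CB embryos, and the larger number was not called. For the large subunit 56 of 72 factors were tested, 27 were called lower, 0 higher and 29 not called, against 19.2% of all tested genes called lower, and the median log2 fold change was -0.82 (-0.96 to -0.74 on leaving out single embryos). The summed level of the 72 factors ranged from 15031 to 20292 CPM in 1C and from 8897 to 11298 CPM in 2CB embryos, without overlap. For the small subunit 41 of 60 were tested, 17 were called lower, 0 higher and 24 not called (0% higher and 41.5% lower, against 24.3% and 19.2% of all tested genes), with a median of -0.57, and Ltv1 belongs to both lists. Npm1 (nucleophosmin, chr11:33152287-33163206, minus strand), which shuttles assembling subunits, ranged from 2453 to 3863 CPM (median 3368) in 1C and from 633 to 1152 CPM (median 741) in 2CB embryos (log2 fold change -2.02 ± 0.23 (SE), adjusted p = 4.13e-06). Mdn1, the giant ATPase that strips factors from the large subunit, ranged from 254 to 688 CPM (median 474) in 1C and from 89.8 to 261 CPM (median 153) in 2CB embryos (log2 fold change -1.61 ± 0.31 (SE), adjusted p = 6.87e-04). Wdr75, of the complex that processes the small subunit RNA, ranged from 83.7 to 178 CPM (median 117) in 1C and from 15.2 to 60 CPM (median 41.5) in 2CB embryos (log2 fold change -1.63 ± 0.36 (SE), adjusted p = 0.00162). Fcf1, also of the small subunit, ranged from 469 to 986 CPM (median 693) in 1C and from 164 to 292 CPM (median 265) in 2CB embryos (log2 fold change -1.43 ± 0.25 (SE), adjusted p = 2.36e-04). Npm1, Wdr75 and Fcf1 did not overlap between the groups, and Mdn1 overlapped narrowly. Brix1, Gnl3l, Lyar and Wdr43 had log2 fold changes of -1.49, -1.49, -1.48 and -1.34. Fbl, Ncl and Dkc1, which act on ribosomal RNA itself, were not called (-0.20, -0.42 and 0.09). With 1C replicate 4 left out, 1 factor of the large subunit was called higher in place of 0.

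The finished parts of the ribosome did not follow as a group. Of 86 cytosolic ribosomal proteins 68 were tested, 8 were called higher, 15 lower and 45 not called (11.8% higher and 22.1% lower, against 24.3% and 19.2% of all tested genes), with a median log2 fold change of -0.12 (-0.23 to -0.01 on leaving out single embryos). Their share of all UMIs ranged from 5.70% to 8.05% in 1C and from 5.08% to 8.43% in 2CB embryos (means 6.79% and 7.45%, difference 0.663 percentage points, exact permutation p = 0.299, adjusted 0.299). Rpl37 ranged from 3331 to 7452 CPM (median 4604) in 1C and from 7099 to 14471 CPM (median 8653) in 2CB embryos (log2 fold change 0.92 ± 0.28 (SE), adjusted p = 0.0159). Among lower members were Rpl41 and Rpl19 (-1.62 and -1.07), and among other higher ones Rps28 and Rps14 (0.84 and 0.82). Many of these genes have processed copies elsewhere in the genome. The 8 higher calls became 3 to 5 when 1C replicate 1, 2, 3, 4 or 5 or 2CB replicate 1, 2, 4, 5 or 6 was left out, and Rps3 (0.74, adjusted p = 0.0669) was not called in 7 of the 12 such fits.

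Autophagy, by which cells enclose and digest their own contents and which mouse embryos use soon after fertilization, was represented by mostly lower genes. Of 43 genes 27 were tested, 17 were called lower, 1 higher and 9 not called (3.70% higher and 63% lower, against 24.3% and 19.2% of all tested genes), and the median log2 fold change was -1.02 (-1.23 to -0.99 on leaving out single embryos). The summed level of the 43 genes ranged from 7232 to 8852 CPM in 1C and from 3479 to 4790.1 CPM in 2CB embryos, without overlap. At the start of the pathway, Ulk1 and Rb1cc1, parts of the initiating kinase, were at -1.25 and -1.86. Atg14, which directs the lipid kinase to the membrane, ranged from 222 to 720.5 CPM (median 330.1) in 1C and from 46.4 to 125 CPM (median 85.1) in 2CB embryos (log2 fold change -2.15 ± 0.34 (SE), adjusted p = 9.89e-05). Map1lc3a, a form of LC3, the protein attached to the growing membrane, ranged from 449 to 1085 CPM (median 640.2) in 1C and from 81.3 to 219 CPM (median 129) in 2CB embryos (log2 fold change -2.37 ± 0.29 (SE), adjusted p = 6.44e-06). Tax1bp1, a cargo receptor, ranged from 179 to 382 CPM (median 358) in 1C and from 63 to 153 CPM (median 101) in 2CB embryos (log2 fold change -1.64 ± 0.27 (SE), adjusted p = 1.43e-04). These 3 did not overlap between the groups. Sqstm1 (p62), Atg4b and Atg7 were lower as well (-1.35, -1.23 and -1.07), and Gabarap, Gabarapl2, Atg12 and Atg5 were not called (0.18, 0.27, -0.29 and -0.65). Tfeb, a transcription factor of lysosome and autophagy genes, was the called gene that was higher, ranging from 6.86 to 96.2 CPM (median 27.7) in 1C and from 80.3 to 157 CPM (median 128) in 2CB embryos (log2 fold change 1.71 ± 0.42 (SE), adjusted p = 0.00391).

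Lysosomal genes went both ways. Of 54 genes 40 were tested, 13 were called higher, 6 lower and 21 not called (32.5% higher and 15% lower, against 24.3% and 19.2% of all tested genes), and the median log2 fold change was 0.26 (0.13 to 0.32 on leaving out single embryos), with falls by over 1.5 times without 1C replicate 1 or 2 or 2CB replicate 2. In the list, Neu1 passed the filter through the 2CB embryos alone. Of 12 tested subunits of the proton pump 2 were higher and 1 was lower, of 5 tested genes of endocytosis 4 were higher, and of 23 tested enzymes and membrane proteins 7 were higher and 5 lower. Psap, the precursor of the saposins, ranged from 82.3 to 194 CPM (median 116) in 1C and from 444 to 1112 CPM (median 634) in 2CB embryos (log2 fold change 2.48 ± 0.29 (SE), adjusted p = 3.79e-06). Tpp1, a peptidase, ranged from 0 to 61.2 CPM (median 12.7) in 1C and from 132 to 201 CPM (median 151) in 2CB embryos (log2 fold change 2.61 ± 0.45 (SE), adjusted p = 2.07e-04). Neu1, a sialidase, had a log2 fold change of 2.92. Lamp2, a membrane protein that autophagosomes need to fuse, ranged from 97.1 to 320.3 CPM (median 171) in 1C and from 27 to 82.3 CPM (median 60.5) in 2CB embryos (log2 fold change -1.80 ± 0.34 (SE), adjusted p = 5.57e-04). Gla, the alpha-galactosidase whose loss causes Fabry disease, ranged from 226 to 519 CPM (median 342) in 1C and from 65 to 201 CPM (median 155) in 2CB embryos (log2 fold change -1.32 ± 0.30 (SE), adjusted p = 0.00205). Ctsz and Grn were lower too (-1.74 and -1.09). The higher and the lower genes named did not overlap between the groups, except Grn. For Neu1 the lack of overlap was needed to pass the filter.

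TFEB binds a palindrome in lysosomal promoters (CLEAR, TCACGTGA), and it was searched for in the same RefSeq windows. It was found in 7 of 49 windows (14.3%) of the list, against 0.974% of 32851 windows of all genes, 2.22% of those of the tested genes, 2.2% of those of the genes called higher and 1.69% of those of the genes called lower. Of the 7 genes, Gla was lower, Atp6v0d1, Atp6v0e, Atp6v1a and Ctsd were not called (-0.48, 0.56, -0.43 and 0.39), and Ctsa and Mcoln1 were not tested. In the fit without a filter Mcoln1 was called higher (1.61, adjusted p = 0.0438). Gla and Ctsa have 2 copies each. Gla is shown because it was called, has 2 copies (capitals) and moved opposite to Tfeb (chrX:134600956-134601255, minus strand).
Gla: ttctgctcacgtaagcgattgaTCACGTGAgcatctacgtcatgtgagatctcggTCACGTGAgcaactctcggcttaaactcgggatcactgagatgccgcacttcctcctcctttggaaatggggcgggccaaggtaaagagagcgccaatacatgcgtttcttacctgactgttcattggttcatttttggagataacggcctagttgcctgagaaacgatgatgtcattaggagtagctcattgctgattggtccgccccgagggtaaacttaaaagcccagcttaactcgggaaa
The first copy opens 228 bases before the start. Of 5 further motifs searched on both strands, those of NRF1, of AP-2 (GCCNNNGGC), of TEAD (GGAATG), of GATA factors (AGATAA) and of ESRRB (AAGGTCA), the shares of windows among genes called higher were 2.36%, 26.7%, 13%, 6.36% and 2.69%, and among genes called lower 1.57%, 26.2%, 10.1%, 7.42% and 2.81%. Among all tested genes they were 2.36%, 25.1%, 11.3%, 6.18% and 2.89%, and in all windows 0.971%, 16.6%, 14.7%, 11.2% and 4.72%.

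Of 39 proteasome subunits 32 were tested, 12 were called lower, 3 higher and 17 not called (9.38% higher and 37.5% lower, against 24.3% and 19.2% of all tested genes), with a median log2 fold change of -0.37 (-0.51 to -0.27 on leaving out single embryos), and Psmb10 passed the filter through the 1C embryos alone. Psmb5, a catalytic subunit, ranged from 162 to 273 CPM (median 232) in 1C and from 62.6 to 115 CPM (median 90.3) in 2CB embryos (log2 fold change -1.38 ± 0.25 (SE), adjusted p = 3.86e-04), and Psmd7, of the regulatory lid, ranged from 322 to 696 CPM (median 363) in 1C and from 127 to 240.3 CPM (median 199) in 2CB embryos (log2 fold change -1.20 ± 0.27 (SE), adjusted p = 0.002). Psmb6, another catalytic subunit, went up, from a range of 322 to 592 CPM in 1C to 805 to 1394 CPM in 2CB embryos (log2 fold change 1.09 ± 0.23 (SE), adjusted p = 0.00145). None of these 3 overlapped between the groups. The 3 higher calls became 1 without 1C replicate 3 and 5 without 2CB replicate 3.

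Of 38 genes of the heat shock and integrated stress responses 20 were tested, 6 were called lower, 2 higher and 12 not called (10% higher and 30% lower, against 24.3% and 19.2% of all tested genes), with a median log2 fold change of -0.43 (-0.62 to -0.37 on leaving out single embryos), and Dnajb9 passed the filter through the 1C embryos alone. Hsp90ab1 (chr17:45567775-45573271, minus strand), the constitutive cytosolic HSP90, ranged from 4424 to 16562 CPM (median 6971) in 1C and from 1284 to 3744 CPM (median 2858) in 2CB embryos (log2 fold change -1.55 ± 0.32 (SE), adjusted p = 0.00113). Its highest level was in 1C replicate 4, and the groups did not overlap. Dnaja1, a cochaperone of HSP70, ranged from 1245 to 2099.6 CPM (median 1832) in 1C and from 311 to 1238 CPM (median 599.5) in 2CB embryos (log2 fold change -1.32 ± 0.31 (SE), adjusted p = 0.00268), and Hsp90aa1 was also lower (-1.02), as was Dnajb9 above. Atf4, the effector of the integrated stress response, was called lower (-0.61), whereas Asns, an amino acid synthetase that it controls, ranged from 0 to 76 CPM (median 24.8) in 1C and from 61 to 328 CPM (median 216) in 2CB embryos (log2 fold change 2.65 ± 0.55 (SE), adjusted p = 0.00113). Hspb1, a small heat shock protein, was higher (2.67), and Hspa5 and Hspa8 were not called (-0.18 and -0.54). Of 32 p53 targets and apoptosis regulators 18 were tested, 4 were called lower, 1 higher and 13 not called (5.56% higher and 22.2% lower, against 24.3% and 19.2% of all tested genes), with a median log2 fold change of -0.27 (-0.39 to -0.21 on leaving out single embryos). Cdkn1a (p21), which halts the cell cycle on p53 activity, ranged from 526 to 1414 CPM (median 775) in 1C and from 5.08 to 375 CPM (median 112) in 2CB embryos (log2 fold change -2.66 ± 0.57 (SE), adjusted p = 0.00146), without overlap. Trp53 itself and Trp53inp1 were lower (-0.78 and -1.41), whereas Mdm2, Ccng1 and Bax were not called (0.57, 0.28 and -0.67). Bcl2l11 (BIM) was called lower (-1.60), but not without 1C replicate 2 or 3 or 2CB replicate 3, 5 or 6, and its value without 1C replicate 2 was -0.79 (adjusted p = 0.371). The single higher call, Birc5 (0.53, adjusted p = 0.0709), was kept in 2 of 12 fits that left out 1 embryo, and the list had 0 to 3 higher calls in these fits, with a change by over 1.5 times without 1C replicate 1, 2, 4 or 6 or 2CB replicate 4.

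Most cell cycle genes did not pass the test. Of 66 genes 46 were tested, 5 were called higher, 7 lower and 34 not called (10.9% higher and 15.2% lower, against 24.3% and 19.2% of all tested genes), with a median log2 fold change of 0.01 (-0.10 to 0.08 on leaving out single embryos), and of 25 tested replication genes 20 were not called, among them the MCM helicase subunits Mcm2, Mcm3, Mcm4, Mcm5, Mcm6 and Mcm7 (from -0.40 for Mcm3 to 0.85 for Mcm5). Ccne1, the cyclin of entry into S phase, ranged from 274 to 476 CPM (median 309.9) in 1C and from 29.7 to 122 CPM (median 79.7) in 2CB embryos (log2 fold change -2.11 ± 0.32 (SE), adjusted p = 7.16e-05). Its kinase Cdk2 ranged from 117 to 208 CPM (median 132) in 1C and from 282 to 758 CPM (median 354) in 2CB embryos (log2 fold change 1.51 ± 0.29 (SE), adjusted p = 5.67e-04). The groups were apart for both, in opposite directions. Ccna2, Cdc25a and Kif23 were lower (-0.79, -1.13 and -0.98), Rpa1 was higher (1.91), and Mki67, Top2a and Plk1 were not called (0.07, 0.23 and 0.28).

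In the Hippo pathway, which reads cell position before TE formation, 15 of 28 genes were tested, 3 were called higher, 3 lower and 9 not called (20% higher and 20% lower, against 24.3% and 19.2% of all tested genes), with a median log2 fold change of -0.14 (-0.29 to -0.00 on leaving out single embryos), and Limd1 passed the filter through the 2CB embryos alone. The effectors Yap1 and Wwtr1 were not called (-0.53 and 0.34). Tead2, a TEAD factor of the cleavage-stage embryo, ranged from 59.7 to 557 CPM (median 129) in 1C and from 491 to 1003 CPM (median 865) in 2CB embryos (log2 fold change 1.98 ± 0.45 (SE), adjusted p = 0.00215). Limd1, a scaffold that restrains the LATS kinases, ranged from 0 to 24.3 CPM (median 9.58) in 1C and from 31.2 to 69.6 CPM (median 57.8) in 2CB embryos (log2 fold change 2.46 ± 0.54 (SE), adjusted p = 0.00177), and Amotl2 was higher as well (1.24). The upstream kinases Stk4 and Taok1 were lower (-0.67 and -1.03). Mob1b, the LATS cofactor, was called lower (-1.18) but not without 1C replicate 2 (-0.77, adjusted p = 0.15).

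In FGF and ERBB signaling 17 of 42 genes were tested, 6 were called higher, 3 lower and 8 not called (35.3% higher and 17.6% lower, against 24.3% and 19.2% of all tested genes), and the median log2 fold change of 0.33 became 0.35 to 0.67 on leaving out single embryos. One member, Dusp6, passed the filter through the 2CB embryos alone. Of the receptors, Fgfr1 and Erbb3 were higher and Fgfr2, given above, was not called. Fgfr1 ranged from 13.7 to 72.8 CPM (median 37.4) in 1C and from 74.3 to 120.2 CPM (median 95.1) in 2CB embryos (log2 fold change 1.33 ± 0.34 (SE), adjusted p = 0.00491), and Erbb3, a receptor that signals with ERBB2, ranged from 6.86 to 35 CPM (median 21) in 1C and from 58.8 to 102 CPM (median 81.5) in 2CB embryos (log2 fold change 1.89 ± 0.37 (SE), adjusted p = 6.80e-04). Erbb2 had 9 UMIs in 1C and 213 in 2CB embryos and was not tested, and Egfr had 0 and 7. Relays between receptor and ERK went both ways. Sos1, which loads RAS with GTP, ranged from 134 to 239 CPM (median 169.8) in 1C and from 21.7 to 71.6 CPM (median 37.8) in 2CB embryos (log2 fold change -2.10 ± 0.33 (SE), adjusted p = 8.84e-05), Ptpn11 and Map2k2 were at -1.69 and -0.99, Nras was higher (0.77), and Hras and Map2k1 were not called (0.23 and -0.32). Of the MAP kinase phosphatases and Sprouty inhibitors, Dusp6 was higher, as above, and Dusp14 and Spry2 had log2 fold changes of 0.85 and 0.75. Dusp4, Spry1, Spry4, Etv4 and Etv5 did not pass the filter.

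Of 9 DNA methylation genes 7 were tested and 3 called higher, and of 19 imprinted genes with Xist 5 were tested and 3 called lower, and Dnmt1 passed the filter through the 2CB embryos alone. Over all tested genes 24.3% were called higher and 19.2% lower. Dnmt3b, which lays down new methylation, ranged from 20.6 to 140.0 CPM (median 54.1) in 1C and from 213 to 607 CPM (median 338) in 2CB embryos (log2 fold change 2.60 ± 0.41 (SE), adjusted p = 8.53e-05). Dnmt3l, its cofactor, ranged from 24.3 to 95.2 CPM (median 86.4) in 1C and from 178 to 449 CPM (median 196) in 2CB embryos (log2 fold change 1.66 ± 0.34 (SE), adjusted p = 9.97e-04), and Dnmt1, the maintenance enzyme, was higher too (2.09). No 2CB embryo overlapped with 1C embryos in these 3 genes, which for Dnmt1 was needed to pass the filter. Dnmt3a, Tet1 and Tet2 were not called (-0.29, -0.14 and 0.04). Igf2r, an imprinted receptor that degrades IGF2, ranged from 219 to 584 CPM (median 277) in 1C and from 42.1 to 141 CPM (median 61.8) in 2CB embryos (log2 fold change -2.08 ± 0.35 (SE), adjusted p = 1.52e-04), and it overlaps Airn on the other strand. Grb10 was lower (-1.70). Snrpn was called lower (-1.12) but not without 1C replicate 6 (-0.75, adjusted p = 0.141). H19, a placental noncoding RNA, had 4 UMIs in 1C and 171 in 2CB embryos, and Igf2 had 21 and 163, and neither was tested. Without 1C replicate 5 the list had 5 higher calls in place of 3.

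**Figure D5:**
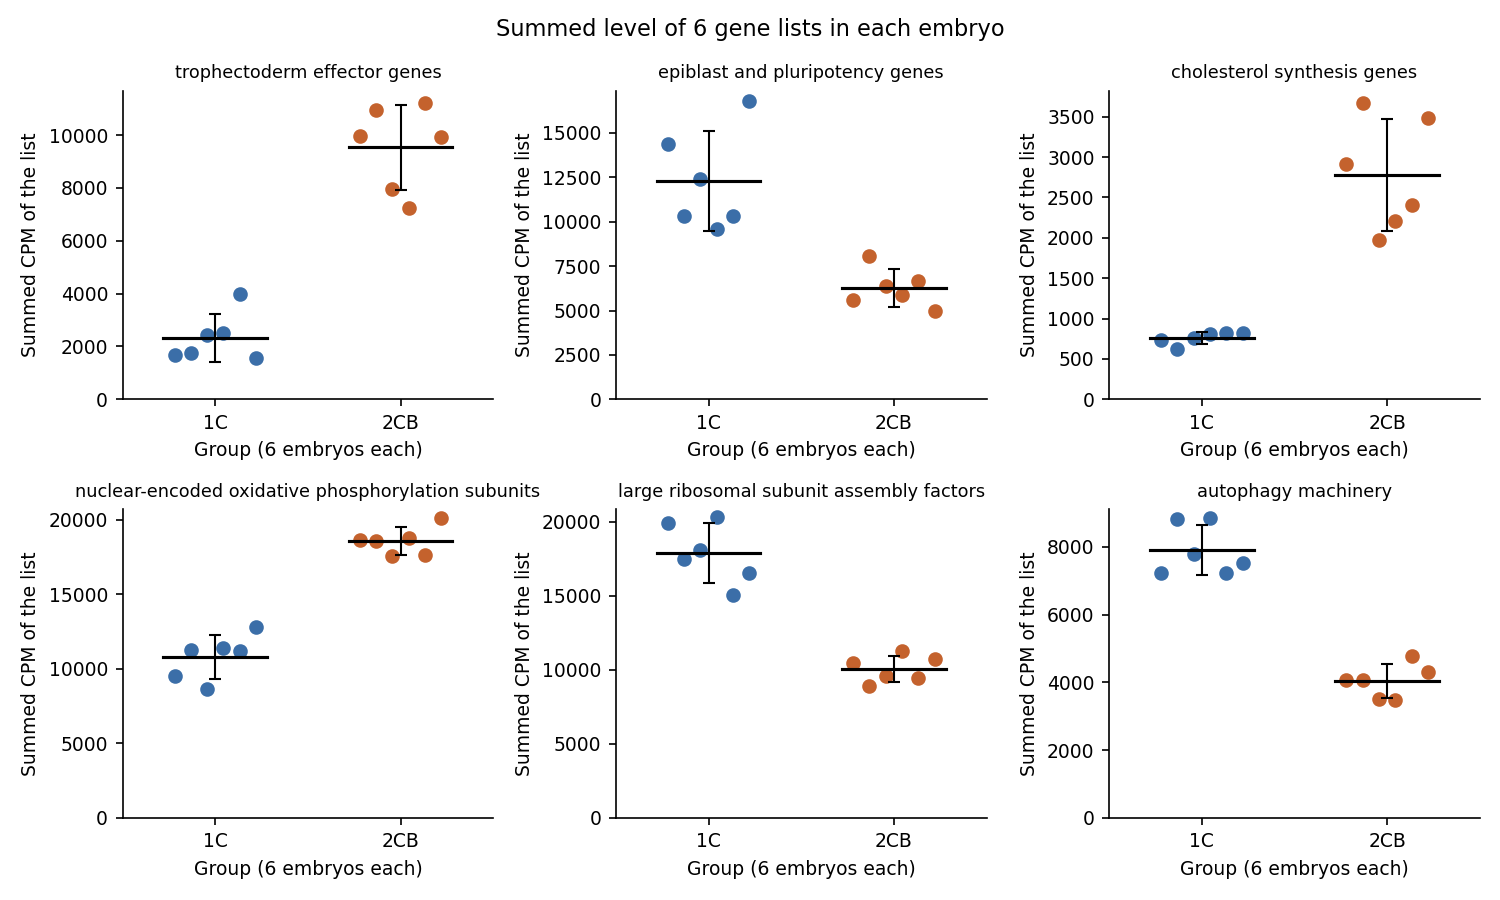
Summed CPM of all members of 6 gene lists (vertical axes, starting at 0) in each 1C (blue) and 2CB (orange) embryo, with the mean (line) and SD (bar) of the 6 embryos of a group. The groups do not overlap in any of the 6 lists (for epiblast genes this rests on Dppa2): TE effectors, cholesterol synthesis and oxidative phosphorylation lie higher and epiblast genes, large subunit assembly factors and autophagy machinery lie lower in 2CB embryos.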

How the data were processed

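Single-embryo CEL-Seq2 libraries were sequenced by the authors on an Illumina HiSeq 1500 in a single run, aligned to GRCm38 with HISAT2 2.2.6 and counted with HTSeq 0.6.1, and the authors tested them with DESeq2 1.10.1, as the methods and the submitters' processing notes state. The deposited table holds whole-number UMI counts per gene and embryo before normalization. The annotation release and the strand setting are not given in the sources used here. Of 52366 genes 51719 were given a symbol from GENCODE M21, and 36 other columns of embryos were not used.

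Counts of the 12 embryos were normalized with TMM, filtered with filterByExpr and tested with the quasi-likelihood F test of edgeR 4.0.16 in R 4.3.3, with the Benjamini-Hochberg adjustment over the 4861 genes and a threshold of 0.1. The SE was derived from the F statistic. The females and days behind the embryos are not given, so p-values measure the spread between these embryos. Replicate numbers were checked for pairing, and in 0 of 6 same-numbered pairs were the deviations correlated above 0.1. Depths were compared by exact permutation tests (SciPy 1.17.1). A gene at 0 in a group was given a floor of 3 UMIs over that group, 2.07 CPM in 1C and 0.696 CPM in 2CB. Floors cover counting error only.

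On simulated counts drawn from the fitted means and spread of all 4861 genes, with 200 genes altered, edgeR recovered 10.5% of changes of 1 and 96.5% of changes of 2 on the log2 scale, with 12.5% and 10.2% false among its calls. These runs gave 24 and 215 calls, against 2117 in the data, and the Benjamini-Hochberg adjustment depends on the number of calls. The percentages hold for 200 altered genes only, and recovery with as many altered genes as were called in the data was not tested. Alternatives were DESeq2 1.42.0, its size factors, other filters, thinning to 123594 UMIs, other thresholds, the replicate number as a block and leaving out embryos. Leaving out 2CB replicates 2 and 5 or 3 and 4 together, and the unfiltered values of markers below the filter, were added after the data were seen. Named genes were the defining lineage markers, the 10 largest fold changes each way among called, non-overlapping genes averaging 50 CPM or more, and up to 4 called genes each way per list averaging 20 CPM or more; other members of the lists were picked with their values seen. The genes, lists and tests were chosen with earlier results of these data known. Promoters are RefSeq windows of GRCm38.p6. Some members of the lists are counted but not reported here by name.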

Additional observations from a re-analysis of the deposited data

Results flagged for a closer look

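Among 84 groups of 6 embryos, for genes that define a lineage or changed most, 10 held an embryo far from the other 5, against a nominal 4.2. In 1C embryos, 5 of these were a single UMI in a group otherwise at 0: Tmprss2 at 6.86 CPM in replicate 1, Adh1 at 2.71 CPM and Dusp6 at 2.71 CPM in replicate 3, Obp2a at 8.09 CPM in replicate 4 and Gpa33 at 2.89 CPM in replicate 6. A single UMI among zeros is flagged by the counts alone, and these 5 genes were taken for large changes. No excess over 4.2 can therefore be read from the 10 groups. Sox17 stood at 24.3 CPM in 1C replicate 4, while 4 of the other 1C embryos had none. In 2CB embryos, replicate 3 stood apart for Eomes, at 1186 CPM, and for Dusp6, at 248 CPM, and the same embryo held the highest level of Elf5, at 607 CPM, and of Lama1, at 657 CPM. Lgals1 was at 4392 CPM in 2CB replicate 6, and Map7d2 at 10.2 CPM in 2CB replicate 1, where its 2CB median was 2.30 CPM.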

How the results depend on the processing

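The number of calls depended on the genes tested and on depth, and their balance on single embryos, with 1047 higher and 1041 lower calls without 2CB replicate 2. Without a filter on low counts 3863 of 21007 genes were called (2223 higher and 1640 lower), and the median log2 fold change of all genes moved to 0.44. Thinned to equal depth and filtered again, 1121 of 2437 genes were called (588 higher and 533 lower). A log2 fold change of at least 1 left 621 lower calls. On leaving out single embryos the calls ranged from 1980 to 2294, the higher calls from 1038 to 1245 and the lower calls from 910 to 1049, the difference in total UMIs from 318362 to 553283 and the difference in detected genes from 695 to 820.0. DESeq2 called 2185 genes, and the fit without 1C replicates 4 and 5 called 2544 that without 2CB replicates 2 and 5 called 1986 and that without 2CB replicates 3 and 4 called 1834. With the replicate number as a block 1883 genes were called, 1092 of them higher; same-numbered embryos did not deviate together, and what they share is the number and the barcode sequence. Of 142 named genes that were tested, 113 kept their call and direction under every alternative that tested them. Without 2CB replicates 3 and 4, Pgam1, Grn, Bcl2l11, Gclm, Mob1b and Snrpn lost their calls, the higher calls among ribosomal proteins went from 8 to 5, and the lower calls went from 2 to 1 for glycolysis and for antioxidant genes and from 3 to 5 for DNA methylation and imprinted genes. Tead4, not called, changed sign without 1C replicate 3 (-0.066) and without 2CB replicates 3 and 4 (-0.0088, against up to 0.20 without 2CB replicate 5). The depth of the 1C embryos limits statements on genes below 2.07 CPM there.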

Other observations

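The genes below are in none of the lists and were picked after their values were seen, so that they stand for no group that was counted or tested. Msn (moesin), which links actin to the membrane, ranged from 0 to 72.8 CPM in 1C and from 295 to 696 CPM in 2CB embryos (log2 fold change 4.55 ± 0.55 (SE), adjusted p = 6.15e-06). Lcp1 (L-plastin), an actin bundler, ranged from 23.1 to 80.2 CPM in 1C and from 549.8 to 1260.4 CPM in 2CB embryos (log2 fold change 4.28 ± 0.32 (SE), adjusted p = 2.07e-08), and Capg, which caps filaments, ranged from 0 to 23.3 CPM in 1C and from 110.1 to 331 CPM in 2CB embryos (log2 fold change 4.41 ± 0.46 (SE), adjusted p = 1.49e-06). Anxa6, an annexin that binds membranes on calcium, ranged from 6.86 to 64.1 CPM in 1C and from 719.7 to 1157 CPM in 2CB embryos (log2 fold change 5.02 ± 0.37 (SE), adjusted p = 1.26e-08). Each of these separated the 2 groups completely. Capg lay below 28.0 CPM in all 1C embryos, so its separation was needed for it to be tested. Myo1e, Dstn (destrin), Zyx (zyxin), Wdr1, Tagln2, Myh9 (nonmuscle myosin) and Iqgap1 had log2 fold changes of 6.64, 2.61, 2.57, 2.92, 2.55, 2.14 and 2.06, all without overlap. For Myo1e, at no more than 17.5 CPM in 1C embryos, the lack of overlap was likewise needed to pass the filter. Lmna, which encodes the lamins A and C of the nuclear envelope, ranged from 124 to 437 CPM in 1C and from 768 to 1887 CPM in 2CB embryos (log2 fold change 2.78 ± 0.36 (SE), adjusted p = 1.11e-05).

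The genes that were lower were picked in the same way. Pemt, which methylates phosphatidylethanolamine to phosphatidylcholine, ranged from 2243 to 3679.6 CPM in 1C and from 96 to 373 CPM in 2CB embryos (log2 fold change -3.53 ± 0.32 (SE), adjusted p = 2.45e-07). Gpd1l, a glycerol phosphate dehydrogenase-like protein, ranged from 939 to 2124 CPM in 1C and from 73 to 184 CPM in 2CB embryos (log2 fold change -3.59 ± 0.30 (SE), adjusted p = 6.72e-08). Isyna1, the synthase that makes inositol phosphate from glucose phosphate, ranged from 4579.5 to 14725 CPM in 1C and from 848 to 3984 CPM in 2CB embryos (log2 fold change -1.89 ± 0.35 (SE), adjusted p = 4.66e-04). Tfrc, the transferrin receptor that brings iron into cells, ranged from 339.8 to 1575 CPM in 1C and from 33 to 192 CPM in 2CB embryos (log2 fold change -3.16 ± 0.45 (SE), adjusted p = 3.19e-05), and Slc12a2, a sodium, potassium and chloride carrier, ranged from 175 to 535 CPM in 1C and from 9.29 to 42.1 CPM in 2CB embryos (log2 fold change -3.63 ± 0.37 (SE), adjusted p = 9.85e-07). Alppl2, an alkaline phosphatase, and Fbxo15, an F-box protein of pluripotent cells, had log2 fold changes of -2.91 and -3.39. No 2CB embryo reached the lowest 1C embryo in any of these 7 genes. Background values for such separation, over all tested genes, are 9.44% upward and 6.75% downward.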
